A study of Drosophila melanogaster with 9 samples.

Results

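The H3K27me3 profile of *bam* testis was set beside that of S2 cells. The comparison used 2 of the 9 samples in the series, taken by their sample labels, with 1 ChIP-seq library from *bam* testis and 1 from S2 cells. The testes came from bam1/bam114-97 flies raised at 25°C, and approximately 200 pairs were pooled for each immunoprecipitation. Loss of *bam* (*bag of marbles*) holds germ cells as dividing spermatogonia, so these testes are rich in undifferentiated germ cells, but they also contain somatic cells. S2 cells are an established *Drosophila* line derived from embryos and were harvested during exponential growth. The same H3K27me3 antibody was used for both. The testes were cross-linked with formaldehyde and sonicated, whereas cross-linking was described only for testes and the S2 cells were taken up in a digestion buffer. Chromatin preparation and cell source therefore cannot be told apart in this comparison. Neither sample could be checked against the marker genes of its cell type, because no gene annotation of the dm3 genome build was used here.

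H3K27me3 is the trimethyl mark on lysine 27 of histone H3. It is placed by the Polycomb group enzyme E(z), the catalytic subunit of a repressive complex that can also bind the mark and spread it to neighbouring nucleosomes. In *Drosophila*, the mark is known for broad domains over silent developmental regulators, and in testis Polycomb group proteins are known to act on genes of terminal differentiation. Active genes carry other marks, including H3K4me3 near their start and H3K36me3 along the transcribed body, together with RNA polymerase II (Pol II).

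The *bam* testis library held 3729366 reads and the S2 library 2779641 reads after identical reads were limited to 3 copies. Of these, 95.3% of the *bam* testis reads and 96.1% of the S2 reads lay on the arms X, 2L, 2R, 3L, 3R and 4. The arms were divided into 24070 tiles of 5 kb, and tile densities were scaled to 1 kb and to 1000000 reads kept in that library (RPM per kb). With 1 library a side, intervals given below are 95% intervals for counting error only (reads lacking molecular identifiers cannot be taken as independent molecules), and no test between samples was possible.

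Reads of *bam* testis were spread more evenly along the genome than reads of S2 cells. The median tile had a density of 7.45 RPM per kb in *bam* testis and 7.27 RPM per kb in S2 cells. The middle of both distributions was therefore close, and the difference lay in the tails. The 5th and 95th percentiles were 2.15 and 15.7 RPM per kb in *bam* testis, against 0.504 and 19.4 RPM per kb in S2 cells. The coefficient of variation over tiles was 0.554 in *bam* testis and 0.830 in S2 cells. Nearly empty tiles, under 2 RPM per kb, made up 4.62% of tiles in *bam* testis and 25.3% in S2 cells. At the other end, the highest tile reached 44.4 RPM per kb in *bam* testis and 115.6 RPM per kb in S2 cells.

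A tile was taken as past the threshold at 14 RPM per kb, which required 262 reads in *bam* testis and 195 reads in S2 cells. In *bam* testis, 1819 tiles passed, or 7.56% (7.23 to 7.90, Wilson interval). In S2 cells, 3894 tiles passed, or 16.2% (15.7 to 16.6). The share was lower in *bam* testis. Wilson intervals of tile shares take tiles as independent, which neighbouring tiles are not, so they do not measure a difference between samples. In 500-bp tiles, the shares were 12.5% in *bam* testis and 19.9% in S2 cells.

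**Figure D1:**
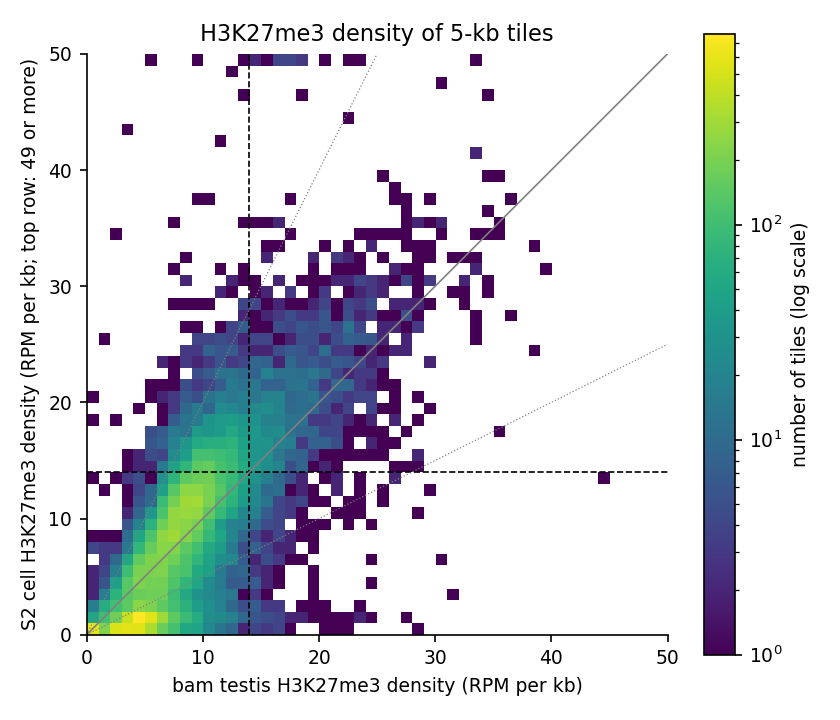
Density of each 5-kb tile in *bam* testis (horizontal, RPM per kb) and in S2 cells (vertical, RPM per kb); colour gives the number of tiles on a log scale, dashed lines mark 14 RPM per kb, the solid line marks equal density, dotted lines mark a 2-fold difference, and tiles above the range are drawn in the last row. The tiles form 1 band along the line of equal density, and further tiles near 0 in S2 cells reach past 20 RPM per kb in *bam* testis.

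Tiles dense in *bam* testis were in general also dense in S2 cells. Spearman's correlation over all 24070 tiles was 0.790, given here as a description, since neighbouring tiles are not independent and the tiles share the 2 libraries. In tiles under 1 RPM per kb in S2 cells, the median *bam* testis density was 3.49 RPM per kb. The *bam* testis median was 11.7 RPM per kb in tiles between 14 and 20 RPM per kb in S2 cells, and 23.7 RPM per kb in tiles at 30 or more. Read the other way, tiles between 2 and 5 RPM per kb in *bam* testis had a median of 1.44 RPM per kb in S2 cells, and tiles between 20 and 30 RPM per kb had a median of 23.9. At low density, S2 cells thus had fewer reads whichever sample was binned. At high density, the reading depended on the sample binned, as tiles between 20 and 30 RPM per kb in S2 cells had a *bam* testis median of 16.8. The samples came close in the middle. Tiles between 5 and 8 RPM per kb in S2 cells had a *bam* testis median of 6.70, and such tiles in *bam* testis had an S2 median of 6.04.

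Adjacent tiles past the threshold were joined into domains. *bam* testis had 783 domains over 9.095 Mb and S2 cells had 1822 domains over 19.47 Mb. Domains were short in both samples. Their median length was 5 kb, a single tile, in *bam* testis and in S2 cells, and the 90th percentile was 25 kb in *bam* testis, against 20 kb in S2 cells. Counted by covered length, 50% lay in domains of 20 kb or more in *bam* testis and of 15 kb or more in S2 cells. The longest domain measured 235 kb in both samples. Of the reads on the arms, 17.5% lay inside domains in *bam* testis and 38.1% in S2 cells. The density inside was 18.3 RPM per kb in *bam* testis and 18.8 RPM per kb in S2 cells. Outside, the density was 7.07 RPM per kb in *bam* testis and 5.90 RPM per kb in S2 cells. The ratio of inside to outside was thus smaller in *bam* testis (2.59) than in S2 cells (3.18), and most of that difference came from the density outside.

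**Figure D2:**
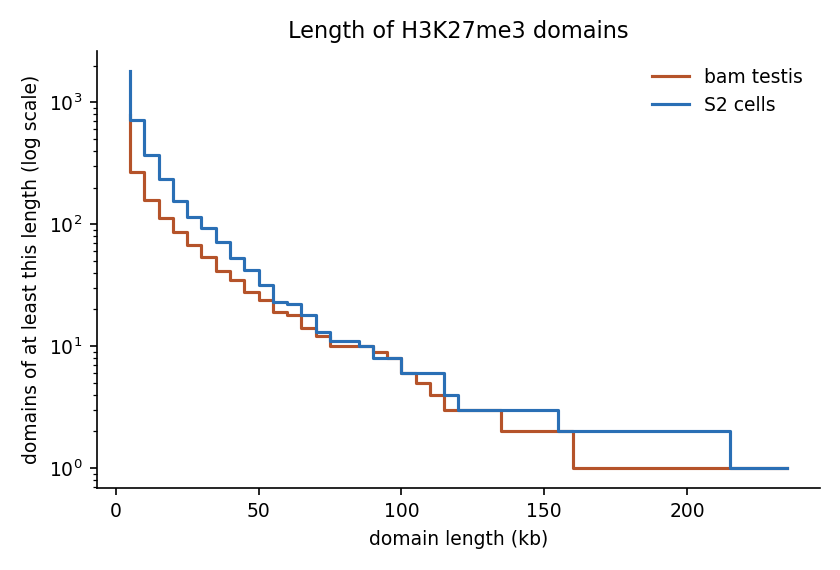
Number of H3K27me3 domains (vertical, log scale) of at least the length on the horizontal axis (kb) in *bam* testis and S2 cells. The curves start at 783 and 1822 domains, run close together past 50 kb, and both end at 235 kb.

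S2 cells had more domains in every class of length. There were 516 single-tile domains in *bam* testis and 1110 in S2 cells, which were 65.9% and 60.9% of all domains. Domains of 10 kb numbered 108 in *bam* testis and 343 in S2 cells, and those of 15 to 25 kb 92 in *bam* testis and 255 in S2 cells. The counts were closest for domains over 50 kb, with 24 in *bam* testis and 32 in S2 cells. Density grew with length in both samples, although a domain was called on this same density. The median domain density went up from 15.3 RPM per kb for single tiles to 20.4 RPM per kb for domains over 50 kb within *bam* testis, and from 15.7 to 22.4 RPM per kb within S2 cells. Long domains also tended to occur in both samples. In *bam* testis, 71.7% of the single-tile domains (67.7 to 75.4) and 23 of the 24 domains over 50 kb met a domain of S2 cells. In S2 cells, 19.9% of the single-tile domains (17.7 to 22.4) and 31 of the 32 domains over 50 kb met a domain of *bam* testis. A longer domain has more tiles with which to meet another, and the part of length in this trend was not separated.

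Most tiles of *bam* testis were also past the threshold in S2 cells. The samples shared 1451 tiles, which were 79.8% of the *bam* testis tiles (77.9 to 81.6) and 37.3% of the S2 tiles (35.8 to 38.8). If the tiles were placed independently, 294 shared tiles would result. These shares depended on the larger number of S2 tiles. When the S2 threshold was raised until 1846 tiles remained, close to the number in *bam* testis, the shares were 59.6% of the *bam* testis tiles and 58.8% of the S2 tiles; this setting was added after the data were seen. In the 500-bp tiles, the shared part was 66.4% of the *bam* testis tiles and 41.7% of the S2 tiles.

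Domains of *bam* testis frequently lay within those of S2 cells. Of the 783 *bam* testis domains, 529 lay inside a single S2 domain, while 335 of the 1822 S2 domains lay inside a single *bam* testis domain. Where domains were split differently, 44 S2 domains met 2 or more *bam* testis domains, and 17 *bam* testis domains met 2 or more S2 domains. The first and last tiles were the same in both samples for 255 domains, 33 of which were 20 kb or longer.

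Tiles past the threshold in a single sample mostly fell just short in the other. The 2443 tiles past the threshold in S2 cells alone had a median of 10.9 RPM per kb in *bam* testis and 16.0 RPM per kb in S2 cells. Of these, 66.5% were at 10 or more RPM per kb in *bam* testis and 3 were under 2 RPM per kb. The 368 tiles past the threshold in *bam* testis alone had a median of 15.4 RPM per kb in *bam* testis and 10.9 RPM per kb in S2 cells. Among these, 58.2% were at 10 or more RPM per kb in S2 cells, but 43 were under 2 RPM per kb. Tiles past the threshold in *bam* testis and nearly empty in S2 cells thus outnumbered the opposite kind. Nearly empty tiles were also more frequent in S2 cells over all tiles, 25.3% against 4.62% in *bam* testis, so the 2 counts are not read as a result about these tiles. Around the threshold itself, 398 tiles lay between 14 and 15 RPM per kb in *bam* testis, with an S2 median of 15.3 RPM per kb, and 536 lay between 13 and 14, with an S2 median of 14.6. In S2 cells, 820 tiles lay between 14 and 15 RPM per kb, with a *bam* testis median of 10.8 RPM per kb, and 952 lay between 13 and 14, with a *bam* testis median of 10.2.

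The level in shared tiles was slightly lower in *bam* testis. The median of the log2 ratio of *bam* testis to S2 density in the 1451 shared tiles was -0.18, a ratio of 0.886, with 5th and 95th percentiles of -0.70 and 0.29. Within these tiles, Spearman's correlation was 0.516. A 2-fold difference was found in few of the 4262 tiles past the threshold in either sample. In *bam* testis, 130 of these tiles were at least 2-fold higher, or 3.05%, with medians of 16.2 RPM per kb in *bam* testis and 3.78 RPM per kb in S2 cells. In S2 cells, 366 were at least 2-fold higher, or 8.59%, with medians of 8.37 RPM per kb in *bam* testis and 19.8 RPM per kb in S2 cells. The tiles higher in *bam* testis were under the S2 median of all tiles, whereas the tiles higher in S2 cells were slightly above the *bam* testis median of all tiles. These positions follow in part from the 2-fold rule, which caps the density in the lower sample. The split between both kinds was 26.2% higher in *bam* testis and 73.8% higher in S2 cells. After scaling both libraries to their median in the shared tiles, the counts were 151 and 201 tiles, a split of 42.9% and 57.1%.

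The longest domains were found at the same places in both samples. The domain at chr3R:2650001-2885000 (dm3) began and ended at the same tiles in *bam* testis and S2 cells, with 19.6 RPM per kb (19.3 to 19.9, exact Poisson interval) in *bam* testis and 23.0 RPM per kb (22.6 to 23.4) in S2 cells. All of its 47 tiles passed the threshold in both samples, and they ranged from 14.9 to 25.5 RPM per kb in *bam* testis and from 17.1 to 31.4 RPM per kb in S2 cells. It was lower in *bam* testis by a ratio of 0.850, and no tile along it fell under the threshold in either sample. The domain at chr2R:7350001-7465000 (115 kb) also had the same first and last tile, with 22.8 RPM per kb in *bam* testis and 23.4 RPM per kb in S2 cells. These values differed by a ratio of 0.974, with counting intervals that overlapped.

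Other long domains differed in where they broke. A domain of 160 kb in *bam* testis, chr3R:12590001-12750000, had 18.9 RPM per kb in *bam* testis and 24.1 RPM per kb in S2 cells, where it continued to 12805000 and measured 215 kb. The 5-kb gap in *bam* testis was followed by a second domain at chr3R:12755001-12810000, with 20.6 RPM per kb in *bam* testis and 26.8 RPM per kb in S2 cells, so both samples had 43 tiles past the threshold in this region, split in *bam* testis by 1 tile at 9.65 RPM per kb. At chr3L:12565001-12700000, a domain of 135 kb in *bam* testis had 19.7 RPM per kb in *bam* testis and 21.8 RPM per kb in S2 cells, where the domain extended to 155 kb. At chr2L:5370001-5480000, the *bam* testis domain was unbroken over 110 kb at 20.4 RPM per kb, whereas in S2 cells 15 of its 22 tiles passed, in 4 separate domains, with 16.0 RPM per kb over the whole stretch. The opposite was seen at chr2L:18715001-18830000, which was unbroken over 115 kb at 19.3 RPM per kb in S2 cells. There, 10 of 23 tiles passed in *bam* testis, in 3 separate domains, with 13.0 RPM per kb over the whole stretch. Over all domains longer than 50 kb, the ratio of *bam* testis to S2 density had a median of 0.963 for the 24 domains of *bam* testis, 7 of which were higher in *bam* testis. For the 32 domains of S2 cells, its median was 0.810 and 0 were higher in *bam* testis. Each list was called on density in its own sample, which moves the ratio in favour of that sample.

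Domains of at least 20 kb with the highest mean density differed more between the samples. In *bam* testis, the highest was chr2R:15135001-15170000, with 28.4 RPM per kb in *bam* testis and 25.4 RPM per kb in S2 cells. It was followed by chr3L:365001-400000, with 28.3 RPM per kb in *bam* testis and 19.6 RPM per kb in S2 cells. The 8 highest domains of *bam* testis lay within a narrow range, 26.2 to 28.4 RPM per kb, and had between 19.6 and 34.5 RPM per kb in S2 cells. In S2 cells, 3 domains stood above the rest. The domain at chr3R:25505001-25560000 had 16.1 RPM per kb in *bam* testis and 69.5 RPM per kb in S2 cells. The domain at chr3R:24370001-24425000 had 15.8 RPM per kb in *bam* testis and 49.1 RPM per kb in S2 cells. The domain at chr3L:605001-630000 had 12.7 RPM per kb in *bam* testis and 46.7 RPM per kb in S2 cells, with a single tile at 115.6 RPM per kb. The remaining 5 of the 8 highest S2 domains ranged from 30.0 to 33.7 RPM per kb in S2 cells.

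Borders of the larger domains that could be paired between the samples mostly lay within 5 kb of each other. Domains of 20 kb or more numbered 113 in *bam* testis and 235 in S2 cells. Most of those in S2 cells had no pair, and domains without a pair are not in the pair counts. Among domains of 20 kb or more, 88 pairs were formed, each of the *bam* testis and the S2 domain that overlapped each other most, with median lengths of 35 kb (*bam* testis) and 40 kb (S2 cells). Of their 176 borders, 100 (56.8%) lay at the same tile and 135 (76.7%) within 5 kb. *bam* testis reached further out at 33 borders and S2 cells at 43. At the 226 borders of *bam* testis domains of 20 kb or more, the mean density 2.75 kb outside was 8.78 RPM per kb in *bam* testis and 8.66 RPM per kb in S2 cells. At 2.75 kb inside, it was 19.5 RPM per kb in *bam* testis and 19.7 RPM per kb in S2 cells. The step at a border chosen in *bam* testis was therefore as steep in S2 cells. At the 470 borders of S2 domains of that length, the mean density 2.75 kb outside was 8.50 RPM per kb in *bam* testis and 7.70 RPM per kb in S2 cells, and 2.75 kb inside it was 14.6 RPM per kb in *bam* testis and 20.2 RPM per kb in S2 cells. The step at borders placed in S2 cells was smaller in *bam* testis. A border lies where its own sample crosses the threshold, so the step in that sample follows in part from the call. S2 cells also had more domains of this length, and the part of this in the smaller *bam* testis step was not tested.

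The profile inside the paired domains was partly shared. Over the 500-bp tiles within a pair, Spearman's correlation between *bam* testis and S2 cells had a median of 0.594 and was above 0 in 88 of 88 pairs. The highest 500-bp tile lay within 1 kb in both samples in 21 pairs (23.9%), and the median distance was 6.75 kb. At the median, the highest 500-bp tile of *bam* testis stood at 2.14 times its domain mean, against 2.30 times for S2 cells.

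Near neighbours resembled one another less in *bam* testis. Spearman's correlation between tiles 5 kb apart, averaged over the 4 large autosomal arms, was 0.564 in *bam* testis and 0.664 in S2 cells. At 20 kb, it was 0.229 in *bam* testis and 0.288 in S2 cells. At 50 kb, both were close, with 0.138 in *bam* testis and 0.134 in S2 cells. At 100 kb, it was 0.0789 in *bam* testis and 0.0361 in S2 cells, so that the order of the samples turned round at this distance.

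The 4 large autosomal arms carried nearly all domains, and the X arm few. On 3R, 11.01% of tiles passed in *bam* testis and 24.5% in S2 cells, the highest share of the large arms in both samples. On 3L, 6.64% passed in *bam* testis and 14.2% in S2 cells, the lowest. Arms 2L and 2R lay between, with 8.89% and 9.53% in *bam* testis and 18.5% and 20.7% in S2 cells. The order of the 4 large autosomal arms was the same in both samples. On the small arm 4, 11.9% of 269 tiles passed in *bam* testis (8.55 to 16.3) and 12.6% in S2 cells (9.19 to 17.1), so the shares were close on that arm. On X, 0.781% passed in *bam* testis and 1.58% in S2 cells, and the longest X domain measured 25 kb in *bam* testis, against 20 kb in S2 cells.

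**Figure D3:**
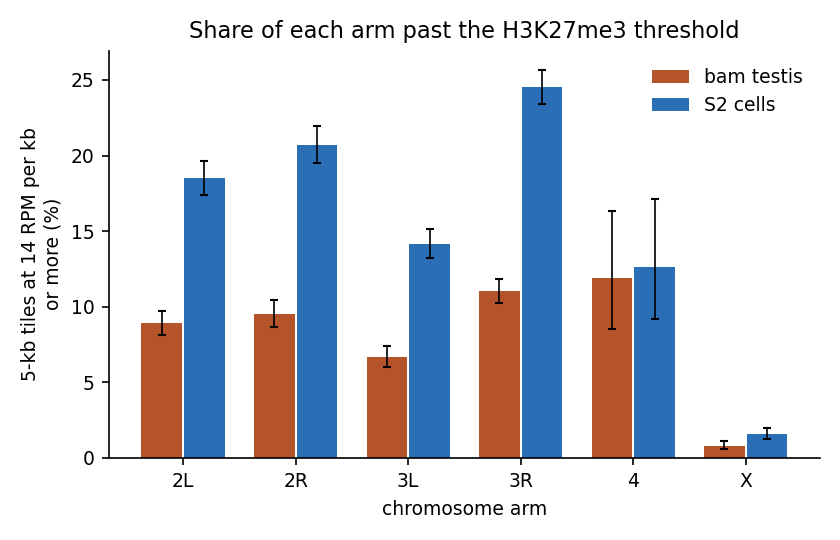
Share of 5-kb tiles at 14 RPM per kb or more (vertical, %) on each chromosome arm in *bam* testis (left bars) and S2 cells (right bars). Error bars are 95% Wilson intervals, counting error only, with tiles taken as independent. X had 0.781% and 1.58%, under all other arms, and arm 4 had 11.9% and 12.6%.

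Density on X was lower throughout, not merely in its domains. The median X tile had 4.67 RPM per kb in *bam* testis and 4.17 RPM per kb in S2 cells, against 8.21 RPM per kb in *bam* testis and 8.78 RPM per kb in S2 cells on the autosomal arms, ratios of 0.569 and 0.475. Among tiles that passed the threshold in neither sample, the ratio was 0.632 in *bam* testis and 0.622 in S2 cells. Male flies have a single X, and the X-to-autosome ratio of the other *bam* testis libraries was 0.480 for H3K4me3, 0.833 for H3K36me3 and 0.591 for Pol II. In S2 cells it was 0.778 for H3K4me3, 1.29 for H3K36me3 and 0.821 for Pol II. No input library was used here, so the part of copy number in these ratios was not tested.

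The 130 tiles that were at least 2-fold higher in *bam* testis fell into 81 runs, 11 of which were 15 kb or longer. The longest, chr3R:11810001-11865000, was a domain of 55 kb in *bam* testis and was nearly devoid of reads in S2 cells. Its density was 20.5 RPM per kb (19.9 to 21.1) in *bam* testis and 0.798 RPM per kb (0.66 to 0.95) in S2 cells, a 25.7-fold difference (21.4 to 30.7). All of its 11 tiles were at 15.6 or more RPM per kb in *bam* testis and at 1.51 or less in S2 cells. Pol II was at 6.69 RPM per kb in *bam* testis and 24.9 RPM per kb in S2 cells over the same stretch, H3K4me3 at 7.50 RPM per kb in *bam* testis and 13.1 RPM per kb in S2 cells, and S2 RNA-seq at 16.1 RPM per kb. Over all tiles, the median of Pol II was 6.11 RPM per kb in *bam* testis and 4.26 RPM per kb in S2 cells. That of H3K4me3 was 6.68 RPM per kb in *bam* testis and 1.44 RPM per kb in S2 cells. S2 cells thus had polymerase, H3K4me3 and transcripts where the *bam* testis domain lay.

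The second longest run lay on arm 4, at chr4:515001-555000. It had 17.2 RPM per kb (16.5 to 17.9) in *bam* testis and 0.936 RPM per kb (0.76 to 1.13) in S2 cells over 40 kb, an 18.4-fold difference. Of the 49 tiles of arm 4 past the threshold in either sample, 10 were at least 2-fold higher in *bam* testis and 5 in S2 cells. Pol II was at 7.45 RPM per kb in *bam* testis and 47.4 RPM per kb in S2 cells, and H3K36me3 at 8.64 RPM per kb in *bam* testis and 22.05 RPM per kb in S2 cells. The third, chr3R:19110001-19130000, had 23.6 RPM per kb in *bam* testis and 3.87 RPM per kb in S2 cells. The run at chr2R:1610001-1625000 had 19.9 RPM per kb in *bam* testis and 2.45 RPM per kb in S2 cells, and stood out for S2 densities of 96.4 RPM per kb for H3K4me3 and 118 RPM per kb for Pol II. A further 4 runs were on 2L. Those at chr2L:1660001-1680000, chr2L:1685001-1700000, chr2L:525001-540000 and chr2L:16440001-16455000 had between 14.9 and 19.6 RPM per kb in *bam* testis and between 1.61 and 3.45 RPM per kb in S2 cells. In all 8 runs, S2 Pol II was at 14.5 RPM per kb or more and S2 RNA-seq at 5.37 RPM per kb or more.

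**Figure D4:**
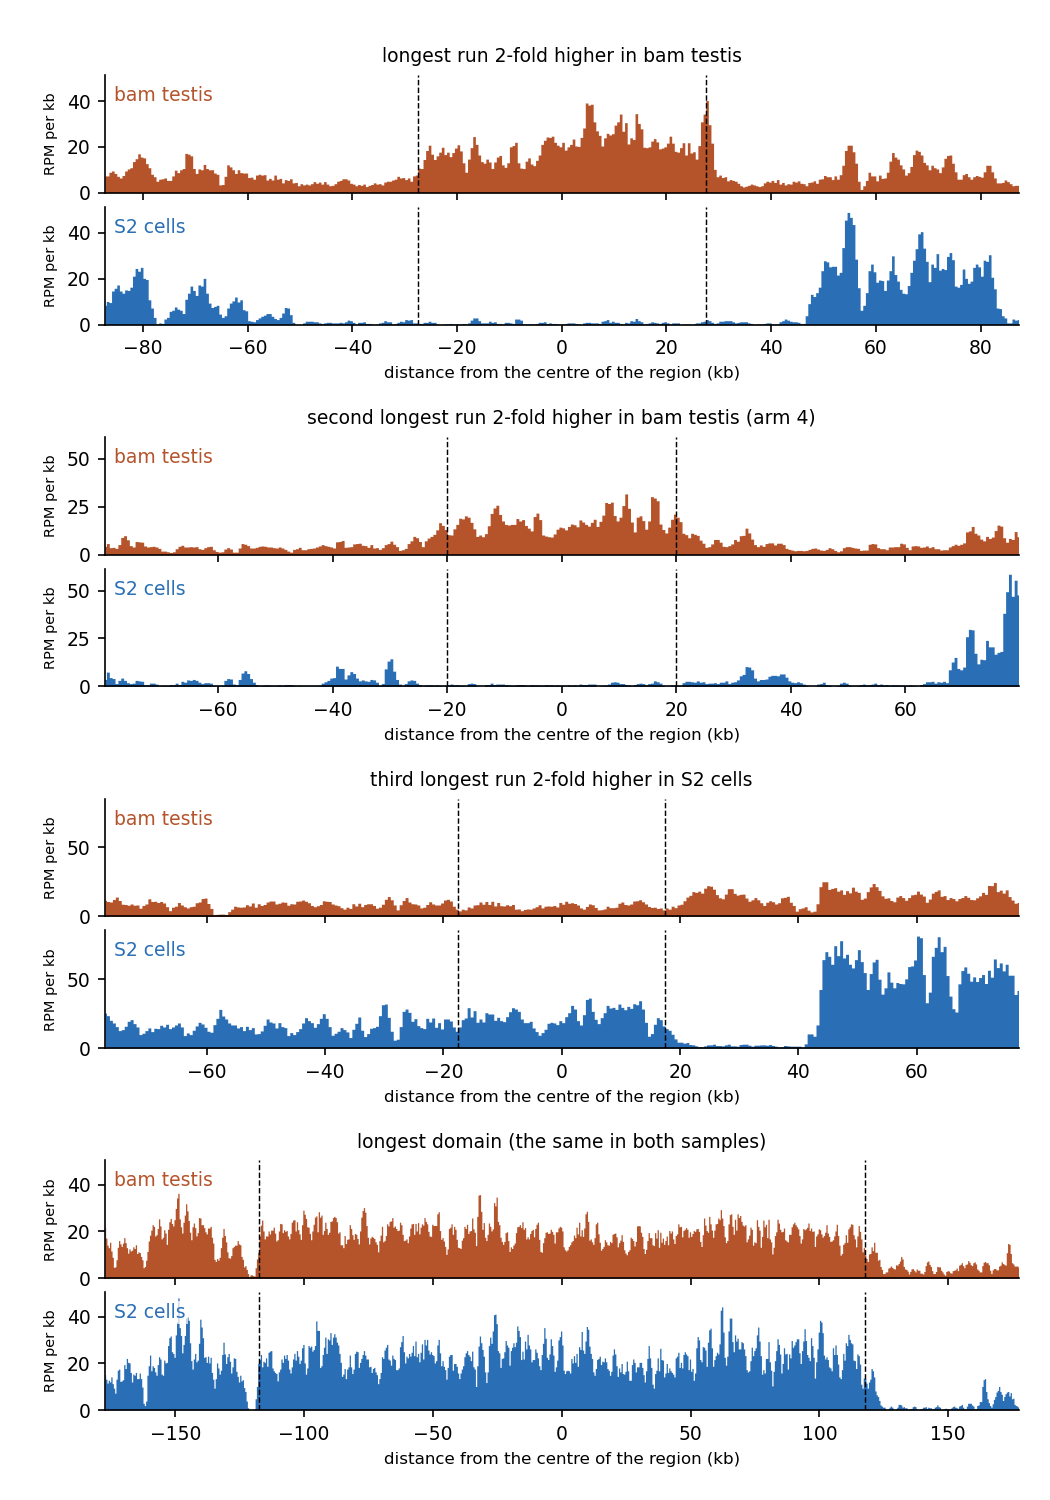
H3K27me3 density in 500-bp tiles (vertical, RPM per kb) against distance from the centre of the region (horizontal, kb) in *bam* testis (upper track of each pair) and S2 cells (lower track), with dashed lines at the ends of the region and the same vertical scale within a pair. From top to bottom, the regions are the 55-kb and the 40-kb run higher in *bam* testis (20.5 and 17.2 RPM per kb in *bam* testis, 0.798 and 0.936 in S2 cells), a 35-kb run higher in S2 cells (7.60 in *bam* testis, 22.7 in S2 cells), and the 235-kb domain of both samples.

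The 366 tiles at least 2-fold higher in S2 cells fell into 243 runs, 29 of which were 15 kb or longer. The longest runs were the pair of very dense domains named above. At chr3R:25505001-25560000, the density was 16.1 RPM per kb (15.6 to 16.7) in *bam* testis and 69.5 RPM per kb (68.2 to 70.8) in S2 cells, 4.31-fold higher in S2 cells. All other S2 libraries were raised there too. H3K4me3 was at 6.85 RPM per kb in *bam* testis and 23.9 RPM per kb in S2 cells, and Pol II at 6.00 RPM per kb in *bam* testis and 19.2 RPM per kb in S2 cells. At chr3R:24370001-24425000, H3K27me3 was 3.11-fold higher in S2 cells, with S2 densities of 6.18 RPM per kb for H3K4me3, 4.65 for H3K36me3 and 7.90 for Pol II. For comparison, the medians of these libraries in tiles past the threshold in both samples were 1.28, 0.929 and 3.64 RPM per kb. The other S2 libraries thus moved with H3K27me3 in these regions, and the part of S2 copy number was not tested.

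The values of the other S2 libraries varied among the next runs. At chr3R:24310001-24345000, H3K27me3 was at 7.60 RPM per kb in *bam* testis and 22.7 RPM per kb in S2 cells, with S2 densities of 1.76 RPM per kb for H3K4me3, 1.92 for H3K36me3 and 4.11 for Pol II. At chr2L:1515001-1545000, it was 7.28 RPM per kb in *bam* testis and 19.0 RPM per kb in S2 cells, with S2 densities of 2.19 RPM per kb for H3K4me3, 1.03 for H3K36me3 and 3.95 for Pol II. At chr3R:15410001-15440000, it was 8.21 RPM per kb in *bam* testis and 22.02 RPM per kb in S2 cells, with S2 densities of 1.81 RPM per kb for H3K4me3, 5.93 for H3K36me3 and 6.72 for Pol II. The *bam* testis values of these runs were close to the *bam* testis median over all tiles, 7.45 RPM per kb. At chr2R:11760001-11780000, H3K27me3 was at 8.57 RPM per kb in *bam* testis and 27.3 RPM per kb in S2 cells, with S2 densities of 17.0 RPM per kb for H3K36me3 and 8.96 for Pol II, so that both marks were high in the same S2 stretch. Over all 366 tiles, 26 (7.10%) had all other S2 ChIP-seq libraries above the 95th percentile of the shared tiles, against 16 of the 1451 shared tiles. These limits were 2.72 RPM per kb for H3K4me3, 6.20 for H3K36me3 and 8.10 for Pol II, and being drawn from the shared tiles they keep that count low. The 75th percentiles over all tiles were at or above them, at 2.72, 8.49 and 8.94 RPM per kb. The share of all tiles past these limits together was not counted, so 7.10% is not read as an excess.

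The tiles with a 2-fold difference were unevenly placed. Of the 366 tiles higher in S2 cells, 107 (29.2%) lay in 3 bins of 1 Mb, and the first 2 Mb of 2L held 67 (18.3%). No such tile was found in 46 of the 120 bins. Tiles higher in *bam* testis were most numerous at 3R between 11 and 12 Mb (13 tiles) and between 19 and 20 Mb (12 tiles), and none was found in 73 bins. Across the genome, more tiles were past the threshold in *bam* testis in 3 bins and in S2 cells in 112 bins, so that the larger number of S2 tiles was not owed to a few places.

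The other S2 libraries divided the 2 kinds of tile. A tile was called active in a sample when H3K4me3, H3K36me3 or Pol II reached 14 RPM per kb there. In the 130 tiles higher in *bam* testis, 20 were active in *bam* testis (15.4%, 10.2 to 22.6) and 86 in S2 cells (66.2%, 57.7 to 73.7). Over all 24070 tiles, 21.5% were active in *bam* testis and 28.4% in S2 cells. In the 366 tiles higher in S2 cells, 39 were active in *bam* testis (10.7%, 7.89 to 14.2) and 37 in S2 cells (10.1%, 7.42 to 13.6). Most tiles with lower H3K27me3 in S2 cells were thus active in S2 cells, whereas few of the tiles with lower H3K27me3 in *bam* testis were active in *bam* testis. The 2-fold rule did not reach like levels, as the median in the lower sample was 3.78 RPM per kb in S2 cells and 8.37 in *bam* testis. Active tiles had median H3K27me3 densities of 1.22 to 1.37 RPM per kb in S2 cells and 4.77 to 5.04 in *bam* testis. Tiles of like low H3K27me3 were not compared, so the part of the rule in this contrast was not tested. In the shared tiles, 51 of 1451 were active in *bam* testis (3.51%) and 54 in S2 cells (3.72%).

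**Figure D5:**
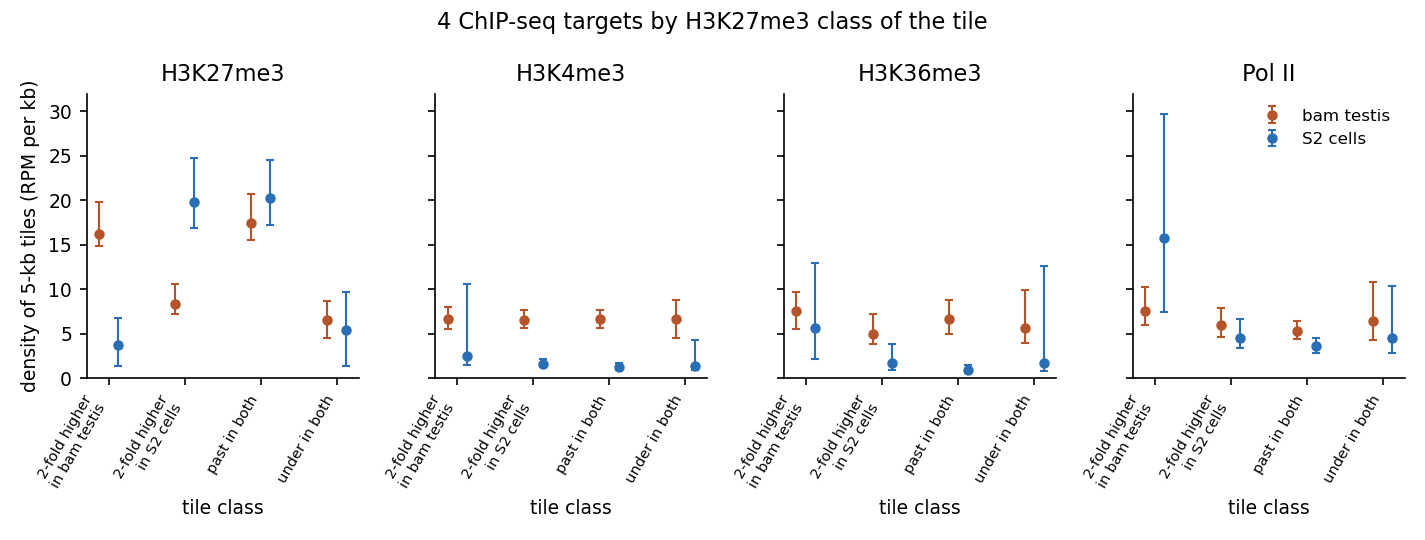
Density of 5-kb tiles (vertical, RPM per kb) for H3K27me3, H3K4me3, H3K36me3 and Pol II in *bam* testis and S2 cells, by class of tile; points are medians and bars run from the 25th to the 75th percentile over 130, 366, 1451 and 19808 tiles. In tiles higher in *bam* testis, Pol II had a median of 7.60 in *bam* testis and 15.7 in S2 cells, and in tiles higher in S2 cells 5.96 and 4.57.

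Pol II and S2 RNA are given for the same tiles. Pol II is among the libraries that define an active tile, so its values are not separate evidence. Its median over all tiles was 6.11 RPM per kb in *bam* testis and 4.26 RPM per kb in S2 cells. In the tiles higher in *bam* testis, the median Pol II density was 7.60 RPM per kb in *bam* testis and 15.7 RPM per kb in S2 cells, and 98 of the 130 tiles (75.4%) had S2 RNA-seq at 1 RPM per kb or more, against 35.1% of all tiles. In the tiles higher in S2 cells, the median Pol II density was 5.96 RPM per kb in *bam* testis and 4.57 RPM per kb in S2 cells, and 58 of 366 (15.8%) had S2 RNA-seq at that level. In the shared tiles, 6.62% did. Pol II of *bam* testis was thus above its median over all tiles where *bam* testis had more H3K27me3, and slightly under it where *bam* testis had less. No RNA-seq of *bam* testis was analysed here, so the matching value for *bam* testis is not given.

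Active tiles were low in H3K27me3 in both samples, but less so in *bam* testis. In tiles with H3K4me3, H3K36me3 or Pol II past 14 RPM per kb, the median H3K27me3 density was between 4.77 and 5.04 RPM per kb in *bam* testis, against 7.83 to 7.99 RPM per kb in the other tiles. In S2 cells it was between 1.22 and 1.37 RPM per kb, against 8.71 to 9.07 RPM per kb. Active tiles were past the H3K27me3 threshold in 1.09% to 1.47% of cases in *bam* testis, where 7.56% of all tiles were, and in 1.42% to 1.74% in S2 cells, where 16.2% of all tiles were. The H3K27me3 density in active tiles was thus higher in *bam* testis. The other *bam* testis ChIP-seq libraries also had a higher low end. For H3K4me3, the 25th percentile over all tiles was 4.98 RPM per kb in *bam* testis and 0.960 RPM per kb in S2 cells. It was 3.98 and 0.863 RPM per kb for H3K36me3, and 4.47 and 2.91 RPM per kb for Pol II. The part of this general difference was not tested.

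For 2 genes, *hh* (CG4637) and *Poxm* (CG9610), the methods of the study give dm3 regions that their promoters overlap. These regions carried both H3K4me3 and H3K27me3 in published data of *Drosophila* embryos. The study had also called both genes as carrying the 2 marks in *bam* testis. Their *bam* testis values therefore follow from that choice and are given as a description. *hh* encodes the secreted signalling protein Hedgehog. Its tile, chr3R:18965001-18970000, had 23.0 RPM per kb (20.9 to 25.3) in *bam* testis and 20.4 RPM per kb (18.1 to 23.0) in S2 cells, and the intervals overlapped. It lay in a domain of 20 kb, chr3R:18955001-18975000, with the same ends in both samples. H3K4me3 was at 10.7 RPM per kb in *bam* testis and 0.960 RPM per kb in S2 cells, under 14 RPM per kb in both. The study called this mark in the 500 bp after the gene start, so a mean over 5 kb does not test its call. The H3K4me3 median over all tiles was 6.68 RPM per kb in *bam* testis and 1.44 RPM per kb in S2 cells. S2 RNA-seq had 0 reads, which allows up to 0.0823 RPM per kb in a tile of 5 kb. *Poxm* encodes Pox meso, a paired-box transcription factor. Its tile, chr3R:4155001-4160000, had 16.8 RPM per kb (15.0 to 18.7) in *bam* testis and 35.8 RPM per kb (32.7 to 39.0) in S2 cells, and it lay in a domain of 10 kb in *bam* testis and of 20 kb in S2 cells. H3K4me3 was at 20.1 RPM per kb in *bam* testis and 1.28 RPM per kb in S2 cells, and Pol II at 15.7 RPM per kb in *bam* testis and 5.61 RPM per kb in S2 cells. In S2 cells, both tiles also lay in H3K27me3 domains, with low H3K4me3. S2 data did not enter the choice of these genes, but embryo data did, and S2 cells are derived from embryos.

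The reads of the *bam* testis library had 2 lengths, which gave 2 readings of the same library. With identical reads limited to 3 copies within each length, 2041835 reads of 25 bp and 1691849 of 29 bp were kept. The 25-bp reads put 1758 tiles past the threshold and the 29-bp reads 2023, with 1503 in common. Spearman's correlation between both was 0.923, and 0 of the 2278 tiles past the threshold in either differed by 2-fold. This spread is technical and does not cover differences between animals or preparations.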

How the data were processed

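H3K27me3 ChIP-seq reads of *bam* testis and S2 cells were analysed, with H3K4me3, H3K36me3, Pol II and S2 RNA-seq for comparison, 9 libraries in all. The authors used ELAND for alignment to dm3 (at most 2 mismatches) and deposited the positions of uniquely mapped reads, which were summed here to a read count per region. The deposited RNA-seq file also holds an alignment score, which was not used. At most 3 identical reads were kept, ChIP-seq reads were shifted by 80 bp, and reads were counted in tiles of 5 kb and 500 bp from position 1 of each arm. The threshold of 14 RPM per kb is the lowest read count in a 1-kb window with a Poisson p under 0.05 when 1000000 reads are spread over the arms, a criterion stated in the study. Shares have Wilson intervals and densities exact Poisson intervals. No comparison had replicates, so none was tested.

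Regions named were, in each sample, the 8 longest domains and the 8 with the highest mean density among those of 20 kb or more, and the 8 longest runs at least 2-fold higher in each sample, with the *hh* and *Poxm* tiles, whose symbols were matched by locus tag to RefSeq. Tiles in these classes, and the lists and settings, were chosen with earlier results of these data known. On simulated data, all 80 planted domains were found with exact borders in each library. These domains filled whole tiles on an even background with counting noise only. The simulation therefore checks the counting and does not measure the accuracy of domains or borders in the real data. The alternatives were other read copies, no shift, thinning, 25-bp reads alone, other thresholds, tile phase, joined gaps, scaling and a filter on low counts. Gene lists and cell type markers were not analysed here, because no dm3 annotation was used. Python 3.11.15, numpy 2.4.6, scipy 1.17.1, pandas 2.3.3 and matplotlib 3.10.9 were used.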

Additional observations from a re-analysis of the deposited data

Results flagged for a closer look

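H3K27me3 reads were also found on sequences outside the arms, which entered no comparison of the report. These densities are reads per 1000000 (RPM) on the whole sequence. The 2LHet sequence had 844 RPM in *bam* testis and 1259 RPM in S2 cells. The 2RHet sequence had 8837 RPM in *bam* testis and 12641 RPM in S2 cells. The 3LHet sequence had 8336 RPM in *bam* testis and 10793 RPM in S2 cells, and the 3RHet sequence 7007 RPM in *bam* testis and 10752 RPM in S2 cells. On XHet there were 470.3 RPM in *bam* testis and 3278 RPM in S2 cells, and on YHet 459.1 RPM in *bam* testis and 156.5 RPM in S2 cells. The U sequence had 21178 RPM in *bam* testis and 0 reads in S2 cells, and the mitochondrial sequence M had 15.3 RPM in *bam* testis and 0 reads in S2 cells, where 0 reads allow up to 1.08 RPM. Whether reads on U and M had been removed from the S2 file or were absent cannot be told apart.

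Most of the XHet difference lay at one end of that sequence. Positions 1 to 180000 had 2.14 RPM per kb in *bam* testis and 2.43 RPM per kb in S2 cells, whereas the next 20 kb had 4.22 RPM per kb in *bam* testis and 103.8 RPM per kb in S2 cells. The remainder, which ends at position 203168, had 0.169 RPM per kb in *bam* testis (2 reads) and 242 RPM per kb in S2 cells. In S2 cells, the same 20 kb had 48.8 RPM per kb of H3K4me3, 47.0 of H3K36me3 and 250.8 of Pol II.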

How the results depend on the processing

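Of the 154 values recomputed under 12 alternatives, 134 stayed within 1.5 times the count or length, within the counting interval of the share or within 0.02 of the correlation or log2 ratio, 20 moved beyond this, and 0 changed sign. With a threshold of 20 RPM per kb, there were 475 tiles in *bam* testis and 1060 in S2 cells, 214 and 513 domains over 2.38 and 5.30 Mb, and 9615 and 22059 tiles of 500 bp. At that threshold, 74.9% of the *bam* testis tiles and 33.6% of the S2 tiles were shared, the median log2 ratio was -0.15, and 31 tiles were 2-fold higher in *bam* testis and 176 in S2 cells. With 2 times the median tile as the threshold, 34.1% of the S2 tiles were shared. With S2 cells held to 1846 tiles, there were 896 S2 domains, and 59.6% of the *bam* testis tiles and 58.8% of the S2 tiles were shared. With 1 copy of each read, the median log2 ratio was -0.14. Scaled to the shared tiles, 201 tiles were 2-fold higher in S2 cells. The lower number of tiles and domains in *bam* testis held under each alternative run; holding S2 cells to 1846 tiles sets the number of tiles but not of domains. The filter on low counts left out 390 tiles of 5 kb. The causes of these shifts were not tested. No paired analysis was possible because each sample had 1 library.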
